A study of Mus musculus with 7 samples.

Results

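Epithelial cells marked by Epcam and by the tight junction claudins Cldn3, Cldn6 and Cldn7 were examined in single-cell RNA libraries of 4 mouse liver tumors. Cell barcodes were chosen by those 4 genes. A barcode had to hold over 1000 UMIs (unique molecular identifiers, each standing for 1 captured transcript), of which at most 20% were mitochondrial. It also had to hold at least 3 UMIs of the 4 genes together, making up at least 0.05% of its base UMIs. Base UMIs are those of all genes other than mitochondrial and haemoglobin genes. This left 496 of the 81779 barcodes that met the depth and mitochondrial limits in the 4 libraries, or 0.607%. The whole series of 7 libraries held 100676 such barcodes.

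The tumors came from ABC-Myc mice (Alb-Cre;CAG-Myc) on the C57BL/6J background, in which Cre under the albumin promoter and enhancer removes a stop cassette in front of a human MYC transgene. The study calls NEJ634, NEJ687, NEJ709 and NEJ723 tumors. It also describes 3 healthy livers of littermates that lacked at least 1 transgene, and does not name them. The other 3 libraries of the series, NEJ638, NEJ654 and NEJ677, are referred to by name only. The labels describe all 7 as a hepatoblastoma model in liver, give no ages and no groups, and the description of NEJ709 names NEJ634. Albumin is made by hepatocytes and their fetal precursors, so the transgene is switched on in that lineage. The human transgene is not a gene of the mouse list, so its transcript is not measured here. Each library was taken as a sample of its own, and no difference between libraries was tested. Intervals are exact at 95%, by the Poisson distribution for levels and by Clopper-Pearson for shares, and take in counting error alone.

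Epcam is a homophilic adhesion protein of simple epithelia. In the liver it is found on bile duct cells and on the bipotent hepatoblasts of the fetus, and it is low in mature hepatocytes. Claudins are membrane proteins that seal the tight junction between neighbouring epithelial cells, and Cldn6 is known as an embryonic form that is largely silent in adult tissue. Hepatoblastoma is a childhood liver tumor that resembles this fetal lineage and commonly makes the fetal serum protein Afp and the growth factor Igf2.

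Promoters of 2 genes used in the choice and of 2 keratins that were higher in the chosen cells are shown first. Snail and Zeb repressors of epithelial genes are known to bind E-boxes, and the E-box form CACCTG, which reads CAGGTG on the other strand, was searched on both strands. The 250 bases before each RefSeq gene start (GRCm38.p6) were read for the 4 selecting genes and for a list of 28 junction and keratin genes. Of these 32 genes, 24 had a window that was used. The letters were found in 16 of 31 windows, belonging to 14 of 24 genes. Over all 32851 promoter windows of the same length 17.2% held them, as did 19.4% of genes. Some of the 31 windows overlap, because genes have several starts. A match describes the letters and is no sign of binding, which was not measured. In the 4 windows printed, capitals mark the E-box, and each of them holds it. Of the other selecting genes, Cldn3 had 0 matches in its window and Cldn7 had them in 1 of 2 windows.
Epcam, chr17:87635729-87635978, + strand: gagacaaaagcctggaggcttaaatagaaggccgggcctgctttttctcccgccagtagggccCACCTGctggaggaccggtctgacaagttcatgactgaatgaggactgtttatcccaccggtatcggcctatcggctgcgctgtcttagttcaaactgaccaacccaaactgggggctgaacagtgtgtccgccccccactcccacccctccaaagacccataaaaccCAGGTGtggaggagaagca
Cldn6, chr17:23679115-23679364, + strand: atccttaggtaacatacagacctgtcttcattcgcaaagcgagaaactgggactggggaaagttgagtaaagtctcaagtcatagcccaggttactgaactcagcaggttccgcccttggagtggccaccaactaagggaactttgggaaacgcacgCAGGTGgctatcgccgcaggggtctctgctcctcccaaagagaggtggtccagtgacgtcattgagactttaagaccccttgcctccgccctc
Krt8, chr15:102004343-102004592, − strand: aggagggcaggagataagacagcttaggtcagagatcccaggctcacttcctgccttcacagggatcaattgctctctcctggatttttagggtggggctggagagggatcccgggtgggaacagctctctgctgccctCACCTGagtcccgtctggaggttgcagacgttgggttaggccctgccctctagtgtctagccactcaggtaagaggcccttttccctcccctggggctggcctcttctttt
Krt18, chr15:102027966-102028215, + strand: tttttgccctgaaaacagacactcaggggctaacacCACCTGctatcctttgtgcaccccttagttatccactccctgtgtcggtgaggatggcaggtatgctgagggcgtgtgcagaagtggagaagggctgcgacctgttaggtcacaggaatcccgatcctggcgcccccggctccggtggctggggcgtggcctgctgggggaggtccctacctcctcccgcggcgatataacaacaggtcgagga

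The chosen cells were unevenly spread over the tumors. NEJ723 gave 326 of 12106 barcodes (2.69%) and so 65.7% of all chosen cells. NEJ634 gave 110 of 40660 (0.271%, interval 0.222 to 0.326%), NEJ709 gave 52 of 21482 and NEJ687 gave 8 of 7531 (0.106%). The cells of NEJ723 were also the deepest, with a median of 38950 UMIs against 4271 in the other barcodes of that library. That median lies above the highest UMI count the study gives for its own analysed cells. Whether each of these deep barcodes holds a single cell is not known. The median was 3464 against 1637 in NEJ634, 7548.5 against 2118 in NEJ709 and 8269.5 against 5010 in NEJ687. With 8 cells, NEJ687 was left out of comparisons across genes.

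How firmly a barcode passed differed between tumors. The median number of UMIs of the 4 selecting genes was 36 in NEJ723, 5.5 in NEJ687, 4 in NEJ634 and 3 in NEJ709. Of the 496 cells, 107 sat exactly at the limit of 3 UMIs and 265 held over 10. Of those 265, 248 came from NEJ723, 9 from NEJ709, 6 from NEJ634 and 2 from NEJ687. Just inside the share limit the lowest values were 0.0510%, 0.0501%, 0.0525% and 0.0507% of base UMIs in NEJ634, NEJ687, NEJ709 and NEJ723. Just outside, the highest values were 0.0484%, 0.0338%, 0.0496% and 0.0484%. A further 394 barcodes stopped at 2 UMIs, and 109 had enough UMIs but too low a share. All 4 selecting genes were detected in 254 cells, 3 in 104, 2 in 109 and only 1 in 29.

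**Figure D1:**
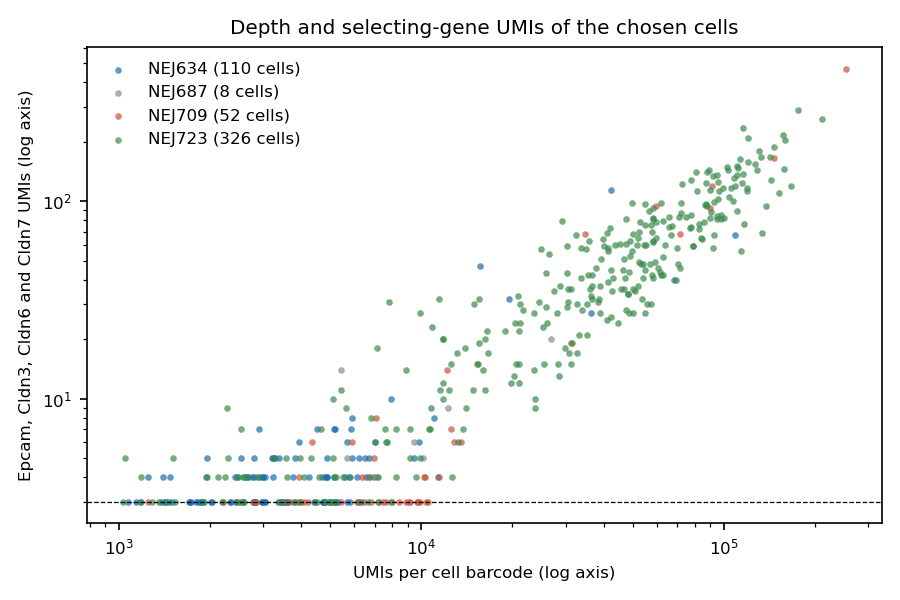
Each point is a chosen cell, with its total UMIs on the x axis and its UMIs of Epcam, Cldn3, Cldn6 and Cldn7 together on the y axis, both log axes, coloured by library. The dashed line marks the limit of 3 UMIs, where 107 cells lie, and most NEJ723 cells sit above 10 selecting UMIs while most NEJ634 and NEJ709 cells sit between 3 and 10.

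The libraries shared barcodes, which has to be stated before any level is compared. Of the 326 NEJ723 cells, 78 (23.9%) were also listed with over 500 UMIs in NEJ709, against 1.51% of all NEJ723 barcodes that met the limits. In NEJ709 these barcodes held a median of 0.691% of their UMIs in NEJ723. Only 9 of the 78 met the limits in NEJ709 and 2 were chosen in both libraries. Each of the barcodes chosen in both was deep in one library and shallow in the other. The first held 253127 UMIs in NEJ709 and 2534 in NEJ723, and the second held 175211 in NEJ723 and 1244 in NEJ709. Of the 52 NEJ709 cells, 8 (15.4%) were listed with over 500 UMIs in NEJ723, against 1.37% of all NEJ709 barcodes that met the limits. The limits were met in NEJ723 by 4 of the 52, and in NEJ634 by 6 of the 326 NEJ723 cells. Leaving out barcodes that met the limits in another library kept 107, 8, 48 and 309 chosen cells of NEJ634, NEJ687, NEJ709 and NEJ723. This took the count of genes higher than in Afp and Igf2 cells from 16 to 10, and most of the 78 barcodes were still among those cells.

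Each selecting gene was also read in cells chosen without it. The 4 genes were proposed together with earlier results of these data known. These values therefore describe the cells and do not test the name epithelial. When Epcam took no part in the choice, its level was 239 CPM (UMIs per 1000000 base UMIs) in the chosen cells of NEJ634, 340 in NEJ709 and 228 in NEJ723. In the other barcodes it was 8.10, 13.9 and 11.6 CPM. Chosen without Cldn7, cells of the 3 libraries held 406, 614 and 487 CPM of Cldn7, and the other barcodes 6.61, 25.6 and 42.7. Cldn6, the embryonic claudin, read 131, 75.1 and 158 CPM in cells chosen without it, 39.0-fold, 11.6-fold and 24.7-fold the other barcodes. Cldn3 read 183, 299 and 305 CPM, which was 15.2-fold, 12.3-fold and 14.9-fold. Each gene was thus higher in sums over cells chosen by the others. In single cells this was less even. In NEJ723 between 79.7% (Cldn6) and 94.3% (Cldn7) of these cells had a UMI of the gene left out. In NEJ709 the shares were 33.3% for Epcam, 40.9% for Cldn3, 20.9% for Cldn6 and 61.9% for Cldn7, and in NEJ634 they were 36.8%, 40.3%, 33.3% and 50.9%. In T-cell barcodes 6 of 905 (0.663%) passed the whole rule, a share not below the 0.607% of all barcodes, and 3 of 958 B-cell barcodes (0.313%) did. Epcam in T-cell barcodes was at 30.6, 36.0 and 16.9 CPM in NEJ634, NEJ709 and NEJ723, above the level of all other barcodes and below that of the chosen cells. T-cell barcodes are therefore no background free of Epcam, and the source of that Epcam was not tested. Cldn3 was at 4.07, 6.75 and 4.08 CPM and Cldn7 at 2.04, 6.75 and 9.90 CPM in T-cell barcodes, both below all other barcodes. By library 3 of 273 T-cell barcodes passed in NEJ634 (1.10%, beside 0.271% of all), 2 of 253 in NEJ687 (0.791%, beside 0.106%), 0 of 68 in NEJ709 (interval up to 5.28%) and 1 of 311 in NEJ723 (0.322%, beside 2.69%). Only in NEJ723 did the share of all barcodes exceed the upper bound for T-cell barcodes, 1.78%.

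Neutrophil RNA, which goes against the name, was plentiful in many cells of NEJ634 and NEJ709. In the 43 NEJ709 cells with 3 to 10 selecting UMIs, the neutrophil genes S100a8 and S100a9 together had a median of 65279 CPM, near the 77712 CPM of the other barcodes, and 39 cells held over 5% haemoglobin. In the 9 NEJ709 cells with over 10 selecting UMIs that median was 157 CPM and 1 cell passed 5% haemoglobin. In NEJ634 the median was 13660 CPM in 104 cells with 3 to 10 and 59.1 CPM in 6 cells with more, beside 7222 CPM in the other barcodes. In NEJ723 it was 407 CPM in 78 cells and 44.9 CPM in 248. The cells with over 10 selecting UMIs therefore carried little neutrophil RNA in the 3 libraries. The keratins Krt8 and Krt18, filament proteins of simple epithelia, were seen in both ranges. Their summed median was 568 and 6355 CPM in the lower and upper range of NEJ709, 1826 and 3705 CPM in NEJ634, and 1651 and 2213 CPM in NEJ723. In the other barcodes this median was 0 in all 3 libraries. The part played by neutrophil and red cell RNA in the lower range was not tested.

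The 8 NEJ687 cells were of several kinds. Clu was at 4679 CPM in them together and at 19.8 CPM in the other barcodes of NEJ687, and Spp1, a secreted protein of bile duct cells, was at 3376 CPM. Afp was at 13.0 CPM, from 1 UMI, against 179 CPM in the other barcodes. The list of T and NK cell genes summed to 3415 CPM in them and 391 CPM in the others, and 1 cell held 184666 CPM of S100a8 and S100a9. These cells are therefore described by number only from here on.

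In the other 3 tumors, genes were compared between the chosen cells and all other barcodes of the same library. UMIs were summed over cells, and differences are log2 values after adding 10 CPM. A gene was counted as higher or lower when it differed at least 2-fold in the same direction in NEJ634, NEJ709 and NEJ723. This rule of size is no test, because cells of a library are not replicates. Of 3575 genes of at least 50 CPM, 141 were higher (3.94%) and 241 lower (6.74%). The same cells were used for the choice, so these values describe the cells and support nothing further. The sums lean on deep cells, as the largest cell held 25.9% of the base UMIs in NEJ709 and 16.3% in NEJ634. Averaging over cells instead gave 49 higher and 14 lower genes, of which 47 and 12 were among the former. Without NEJ634, the counts over the other 2 tumors were 569 and 547.

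Clu, the secreted chaperone clusterin, and Spink1, an inhibitor of trypsin, had been proposed as markers of these cells. Clu was at 3365 CPM (interval 3226 to 3508) in NEJ634, 749 CPM (695 to 806) in NEJ709 and 1358 CPM (1340 to 1377) in NEJ723. In the other barcodes it was at 153, 145 and 69.4 CPM. Spink1 was at 167 CPM in NEJ634, 690 CPM in NEJ709 and 640 CPM in NEJ723, against 48.7, 61.9 and 39.2 CPM. Both were thus higher in each tumor. They were proposed with earlier results of these data known, so this describes the cells and supports nothing further. As a mean over libraries Spink1 reached 50 CPM only in the chosen cells. The Spink1 sum of NEJ709 rests on its 9 deep cells, at 822 CPM, while its other 43 cells were at 159 CPM beside 187 CPM in the 104 cells of NEJ634 in the same range. Clu had a UMI in 82.7%, 69.2% and 92.6% of the cells of NEJ634, NEJ709 and NEJ723. In NEJ634 the differences were 4.37 for Clu and 1.59 for Spink1. The membrane protease inhibitor Spint2 was also higher in each, by 1.69, 2.09 and 2.49.

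Most measured junction and keratin genes were higher. Of 28 genes on the list, 14 were measured, of which 13 were higher and 0 lower. A gene is measured if either pool reaches 50 CPM, and 12 of the 14, Krt19, Cldn4 and Cdh1 among them, did so only in the chosen cells, where such a gene has to be the higher, so this count describes the measured genes and supports nothing by itself. Krt8 and Krt18 reached it in both pools, and both were higher. The same limit bears on each list counted here. Krt8 was at 1347 CPM in NEJ634, 2990 in NEJ709 and 1396 in NEJ723, against 317, 207 and 84.7 CPM. Its filament partner Krt18 was at 1428, 2772 and 1198 CPM, against 236, 168 and 71.5 CPM. The sums of NEJ709 rest on 9 deep cells, in which Krt8 was at 3562 CPM and Krt18 at 3345 CPM. In the other 43 cells of NEJ709 Krt8 was at 687 CPM and Krt18 at 460 CPM, below the 1243 and 1021 CPM of the NEJ634 cells and the 950 and 789 CPM of the NEJ723 cells in the same range of 3 to 10 selecting UMIs. Krt19 and Krt7 are keratins of bile duct cells. Krt19 was at 29.0 CPM in NEJ634, 242 CPM in NEJ709 and 73.8 CPM in NEJ723, against 1.68, 9.80 and 1.85 CPM. Krt7 was at 33.6, 170 and 86.3 CPM. Among cells with over 10 selecting UMIs neither of these keratins was counted as higher. There Krt19 was at 7.01, 279 and 74.7 CPM in NEJ634, NEJ709 and NEJ723, beside 46.0, 89.8 and 38.3 CPM in the lower range.

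The junction proteins themselves followed. Cdh1, the E-cadherin of adherens junctions, was at 154 CPM in NEJ634, 129 CPM in NEJ709 and 163 CPM in NEJ723, against 35.4, 18.1 and 15.1 CPM. The desmosomal cadherin Dsg2 was at 266, 119 and 195 CPM, and the differences were 2.91, 2.65 and 3.43. Cldn4, a claudin that was not used in the choice, was at 33.6, 276 and 88.5 CPM against 0.934, 11.3 and 5.13 CPM. Tight junction scaffold Tjp1, junction adhesion molecule F11r, desmoplakin Dsp, cingulin Cgn, the tricellular junction protein Lsr and the polarity protein Crb3 completed the 13. With the mean over cells, 8 of the 14 remained counted. None of 12 epithelial splicing and transcription regulators, such as Esrp1 and Grhl2, reached 50 CPM, so that list gave no value.

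**Figure D2:**
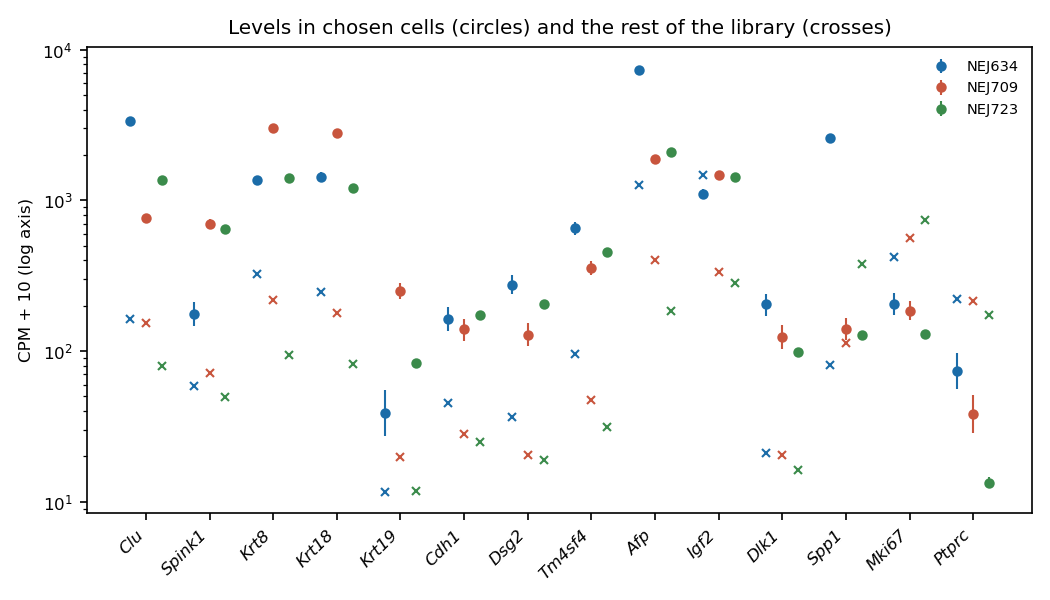
Levels of 14 genes as CPM plus 10 on a log axis in NEJ634, NEJ709 and NEJ723, with circles for the chosen cells, bars for their exact 95% Poisson intervals and crosses for the other barcodes of the library. Clu, the keratins and the junction genes lie above the crosses in each library, Igf2 lies below its cross in NEJ634, and Mki67 and Ptprc lie below theirs in each.

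Of 20 measured fetal liver genes 6 were higher and 0 lower. Of the 6, 3 reached 50 CPM in both pools. By the mean over cells 2 of the 20 were higher, and Afp and Gpc3 were no longer counted. Afp was at 7312 CPM (7106 to 7522) in NEJ634, 1862 CPM (1776 to 1950) in NEJ709 and 2073 CPM (2050 to 2096) in NEJ723, against 1247, 391 and 175 CPM. In NEJ634 the 6 cells with over 10 selecting UMIs held 3471 of the Afp UMIs, at 12166 CPM, beside 3563 CPM in the other 104. In NEJ709 the 9 deep cells were at 2234 CPM of Afp and the other 43 at 359 CPM, below the 391 CPM of the other barcodes. Igf2 was at 1095, 1464 and 1411 CPM against 1460, 327 and 271 CPM, so its difference was -0.41 in NEJ634 and 2.13 and 2.34 in NEJ709 and NEJ723. The surface protein Dlk1, shed by hepatoblasts, was at 194, 114 and 88.7 CPM against 10.9, 10.3 and 6.28 CPM. The heparan sulphate proteoglycan Gpc3 was at 33.6, 73.5 and 84.6 CPM and its differences were 1.75, 2.19 and 2.38. The imprinted transcription factor Peg3 was at 451, 332 and 547 CPM, and the RNA-binding protein Igf2bp1, which binds Igf2 mRNA in the embryo, was at 68.7, 41.0 and 70.8 CPM.

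H19, the noncoding neighbour of Igf2, was at 2600 CPM in NEJ634, 2175 CPM in NEJ709 and only 109 CPM in NEJ723. It had a UMI in 94.5%, 88.5% and 17.2% of the cells. The other barcodes of NEJ723 were low as well, with 29.1 CPM of H19 against 3222 and 730 CPM in NEJ634 and NEJ709. Meg3, of the Dlk1 locus, was at 186, 141 and 132 CPM against 19.2, 12.1 and 7.47 CPM.

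Of 4 measured liver transcription factors, Hnf4a, which maintains hepatocyte identity, and Prox1 were higher, both measured only through the chosen cells. Among 6 mature hepatocyte genes 0 passed in either direction, with a median of 0.24. Among 2 YAP target genes Ccn1, a secreted matrix protein, was higher at 417, 214 and 335 CPM against 22.4, 14.3 and 16.5 CPM in NEJ634, NEJ709 and NEJ723. Among 2 Wnt target genes 0 were higher and Cd44, which white cells also make, was lower. Of 10 measured genes of the IGF pathway Igf2bp1 was higher and Igf1 lower. Of 21 genes of ribosome biogenesis and Myc targets 0 passed, although their median was 1.09. Nucleolin (Ncl) was one of them, at 2355, 2717 and 2776 CPM against 1528, 623 and 1038 CPM. Among 12 dissociation and stress genes Atf3 and Egr1 were higher. Glycolysis genes gave 0 higher and 1 lower of 11. Over all 3575 genes 3.94% were higher and 6.74% lower, and the median was 0.24. The counts of glycolysis, IGF pathway, Myc target and mature hepatocyte genes lie near those shares and say nothing particular to these lists.

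Of 23 measured cell cycle genes 0 were higher and 1, Mki67, was lower, near the 3.94% and 6.74% over all genes, so the counts say nothing particular to this list. Mki67, a marker of cycling cells, was at 196 CPM in NEJ634, 175 CPM in NEJ709 and 120 CPM in NEJ723, against 411, 552 and 725 CPM. The other barcodes hold many cell types, and which of them carry the Mki67 UMIs was not tested. The DNA topoisomerase Top2a was at 108, 125 and 160 CPM against 211, 234 and 325 CPM. Not all of the 23 genes leaned this way. As a mean over libraries 4 of them, Hells, Ccne1 and Cdc20 included, reached 50 CPM only in the chosen cells, and 3 only in the other barcodes. Their median difference was -0.48, beside 0.24 over all genes. Thinned to 500 base UMIs, 17.3%, 13.5% and 3.99% of the chosen cells kept a UMI of Mki67. In the other barcodes 18.0%, 20.5% and 19.8% did, so NEJ723 stood apart.

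Blood cell genes were among the lower ones, beside genes of other kinds such as Igf1 and Mki67. Of 10 measured neutrophil genes 7 were lower, of 10 erythroid genes 8, and of 6 white cell genes all 6. Of these 4, 3 and 4 reached 50 CPM in both pools, and the rest only in the other barcodes. With the mean over cells, these counts fell to 0, 1 and 0. Against other barcodes of at most 5% haemoglobin 6 of the 8 erythroid genes were recomputed, and 5 turned direction while Car1 stayed lower. Alas2 was then at 2.98, Cldn13 at 1.53, Rhd at 1.26, Klf1 at 0.85 and Car2 at 0.10. The chosen cells were not limited in the same way. Over 5% haemoglobin was held by 32 of 110 in NEJ634, 40 of 52 in NEJ709 and 35 of 326 in NEJ723. With only the other barcodes limited, the turn says nothing particular to the chosen cells. Ptprc, the white cell surface protein CD45, was at 64.2 CPM in NEJ634, 28.4 CPM in NEJ709 and 3.42 CPM in NEJ723, against 210, 205 and 165 CPM. The neutrophil list summed to 12702, 15234 and 760 CPM in the chosen cells and to 29849, 98158 and 36135 CPM in the others. NEJ723 therefore held the least white cell RNA. Among 5 genes of epithelial to mesenchymal change 0 were higher and 3 lower, Vim (vimentin) among them, which white cells also make.

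A closer comparison set the chosen cells beside Afp and Igf2 cells of the same tumors. These were barcodes outside the rule with at least 5 UMIs of Afp and Igf2 together, making up at least 0.3% of base UMIs. There were 9524 in NEJ634, 166 in NEJ687, 115 in NEJ709 and 300 in NEJ723. Their median depth was 2140 UMIs in NEJ634, 2689 in NEJ709 and 2075 in NEJ723, against 3464, 7548.5 and 38950 in the chosen cells. Of the chosen cells, 49 of 110, 8 of 52 and 170 of 326 met the same Afp and Igf2 limit. The 2 pools therefore overlap in this trait and differ in depth, and the part played by depth was not tested. They were selected on Afp and Igf2, so their higher Igf2 carries no information. H19, the neighbour of Igf2, was not used in the choice, and how far its difference follows from that choice was not tested. Of 3249 genes 16 were higher in the chosen cells of all 3 tumors (0.492%) and 41 lower (1.26%). Several settings changed these counts, and the mean over cells gave 10 and 9. They were 25 and 70 without NEJ634, and 75 and 94 without NEJ723.

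The 16 higher genes were Sprr1a, Anxa13, Krt7, Krt19, Spp1, Cystm1, Sfn, Ccn1, Anxa3, Sox4, Dsg2, S100a6, Hspb1, Myl12a, Ttc3 and Fos. Of 10 measured biliary genes 5 were higher and 1 lower, and of 14 junction and keratin genes 3 were higher. All 5 of these biliary genes and 2 of the 3 junction and keratin genes reached 50 CPM only in the chosen cells. Among cells with over 10 selecting UMIs these counts were 2 biliary genes and 0 junction and keratin genes higher, and Krt7, Krt19, Sox4, Dsg2, Anxa3, S100a6 and Fos were no longer counted. By the mean over cells Sprr1a, Spp1, Cystm1, Anxa3, Dsg2, S100a6, Myl12a, Ttc3 and Fos were not counted. Spp1 in NEJ709 rested on 1 cell, which held 83.9% of its UMIs. Krt19 was at 29.0, 242 and 73.8 CPM in the chosen cells of NEJ634, NEJ709 and NEJ723 and at 2.05, 3.37 and 5.87 CPM in the Afp and Igf2 cells. The differences were 1.70, 4.23 and 2.40. Sox4, a transcription factor of bile duct development, was at 235, 244 and 179 CPM against 16.4, 47.2 and 76.4 CPM. Sprr1a, a cornified envelope protein of stratified epithelium, was at 65.7, 172 and 72.2 CPM, and had a UMI in 8.18%, 11.5% and 27.9% of cells. The epithelial 14-3-3 protein Sfn was at 51.9, 173 and 69.0 CPM against 4.31, 5.06 and 22.5 CPM. The small heat shock protein Hspb1 was at 440, 899 and 454 CPM against 41.9, 48.9 and 212 CPM.

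The 41 lower genes included genes of hepatocyte metabolism as well as Igf2, H19 and Aqp1. Of 11 measured mature hepatocyte genes 0 were higher and 6 lower, among them Abcb11, Cps1, Cyp3a11, G6pc and Hpd. Of the 11, 6 reached 50 CPM only in the Afp and Igf2 cells, where they are the higher by that choice, and 4 of the 6 lower genes are among them, Abcb11 and G6pc included. By the mean over cells 1 of the 11 was lower. Cps1, the first enzyme of the urea cycle, was at 130 CPM in NEJ634, 32.6 CPM in NEJ709 and 41.2 CPM in NEJ723. In the Afp and Igf2 cells Cps1 was at 743, 384 and 155 CPM, and the differences were -2.43, -3.21 and -1.69. Abcb11, the bile salt export pump, was at 29.0, 3.15 and 2.94 CPM against 185, 106 and 24.5 CPM. G6pc, which releases glucose, was at 26.0, 4.20 and 1.64 CPM against 114, 80.9 and 26.4 CPM. Igfbp2, a binding protein for IGFs, was lower by 2.30, 3.42 and 1.90 on the log2 scale. Cell cycle genes gave 0 of 20 in either direction, near the 0.492% and 1.26% over all genes, so this says nothing particular to the list. Mki67 differed by -0.50, -0.43 and -0.34.

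Clu, Spink1 and Afp, read in the same comparison, were not among the counted genes. Both proposed markers, Clu and Spink1, reached 50 CPM in both pools there. Clu was at 222, 286 and 712 CPM in the Afp and Igf2 cells of NEJ634, NEJ709 and NEJ723, so its differences were 3.86, 1.36 and 0.92, the last short of 2-fold. Krt8 and Krt18 were likewise short of 2-fold in NEJ723, at 0.89 and 0.73. Afp reached 2937, 2233 and 2598 CPM in the comparison cells.

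Among themselves the chosen cells fell into 7 clusters, made without the selecting genes and left unnamed. Cluster 1 held 96 cells, 92 of them of NEJ723, and its leading genes were Krt20, Ccl2, Slpi, Ankrd1 and Ifitm3, each under 2-fold above the other chosen cells (Krt20 at 98.5 against 56.5 CPM). Cluster 2 held 94, of which 82 were of NEJ723, 6 of NEJ634 and 6 of NEJ709. It led with the apolipoproteins Apoa4, Apoc2 and Apoa1, the chemokine Cxcl10 and the urea cycle gene Cps1. Cluster 5 held 76, 73 of them of NEJ723, and led with Anxa1, Fabp3, Basp1, Onecut2 and Wfdc2. These 3 clusters together held 247 of the 326 NEJ723 cells (75.8%). Apoa1 was at 2967 CPM in cluster 2, 1063 CPM in cluster 1 and 251 CPM in cluster 5. Krt19 ran the other way, at 45.7, 76.8 and 151 CPM. Mki67 was at 121, 76.4 and 145 CPM, so it did not follow that order. These are sums over the cells of all libraries, and they describe genes that helped to make the clusters.

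The remaining clusters gathered other cells. Clusters 3 and 6 led with the neutrophil genes S100a8, S100a9, Camp and Ngp and held 131 cells (26.4%). They took 73 of 110 cells of NEJ634, 38 of 52 of NEJ709 and 19 of 326 of NEJ723. Of those 131 cells, 74 sat at exactly 3 selecting UMIs and 81 held over 5% haemoglobin. Cluster 4 held 84 cells and led with Rarres2, the bile duct gene Spp1 and the T and NK cell genes Gzma and Ccl5. Cluster 7 held 15 cells and led with Gm26917, Hist1h3e, Arc and Lars2. Resolution 1 gave 12 clusters, and leaving out cell cycle genes gave 8. The adjusted Rand index to the 7 clusters was 0.650 and 0.560, so membership changed with these settings. How much of clusters 3, 4, 6 and 7 is free RNA or mixed droplets was not tested.

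**Figure D3:**
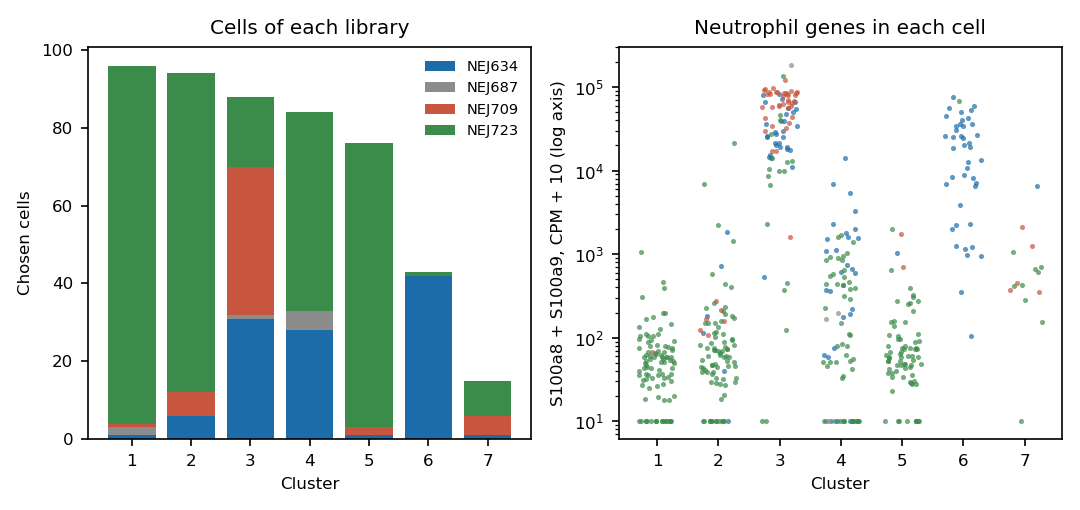
The left panel stacks the number of chosen cells of each library in each cluster, and the right panel gives S100a8 plus S100a9 in each cell, as CPM plus 10 on a log axis. Clusters 1, 2 and 5 come mainly from NEJ723, and the neutrophil genes are highest in clusters 3 and 6, which come mainly from NEJ634 and NEJ709.

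Spp1 (osteopontin) was uneven among the cells of NEJ634. Its sum was at 2601 CPM in NEJ634, 130 CPM in NEJ709 and 117 CPM in NEJ723, with 70.7, 103 and 367 CPM in the other barcodes, and in the Afp and Igf2 cells at 32.0, 27.0 and 31.3 CPM. At a limit chosen after its values were seen, at least 5 Spp1 UMIs and 0.1% of base UMIs, 31 of 110 cells of NEJ634 were rich in Spp1. So were 4 of 8 in NEJ687, 0 of 52 in NEJ709 and 9 of 326 in NEJ723. Of the 31, 29 did not meet the Afp and Igf2 limit, which 49 of the 110 cells did, and 32 cells met neither limit. Those 29 together held 9001 CPM of Clu and 240 CPM of the bile duct transcription factor Sox9, while their Spp1 and Afp, at 9793 and 312 CPM, were fixed by the choice. The bile duct keratins Krt19 and Krt7 were low in those 29 cells, at 42.0 and 48.0 CPM, from 7 and 8 UMIs. The 6 NEJ634 cells with over 10 selecting UMIs were split evenly. Spp1 was at 14537, 27909 and 11492 CPM in 3 of them and at 0 in the others. Afp and Igf2 together were at 24.0, 328 and 105 CPM in those 3 and at 26271, 9623 and 8816 CPM in the others. None of the 6 was high in both. The level of Clu in NEJ634 was thus mostly that of the Spp1-rich cells, with 16531, 10744 and 17397 CPM in the 3 and at most 758 CPM in the others.

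In the 9 NEJ709 cells with over 10 selecting UMIs Spp1 was at 0 in 7 of them, at 7.06 CPM in another and at 422 CPM in the deepest. Their Afp and Igf2 levels ran from 328 to 10032 CPM, 5 of the 9 met the Afp and Igf2 limit, and Krt8 and Krt18 together ran from 1818 to 15497 CPM.

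Cells that passed the same rule in the other 3 libraries are set beside the tumors. There were 19 in NEJ638, 23 in NEJ654 and 31 in NEJ677. Spp1 was at 13873, 11458 and 18838 CPM in them and Clu at 12421, 10805 and 14078 CPM. Sox9 was at 632, 156 and 446 CPM and Krt19 at 264, 391 and 266 CPM. Afp was at 0, 28.4 and 41.2 CPM, Igf2 at 0, 35.5 and 41.2 CPM and Spink1 at 0, 7.11 and 66.5 CPM. Igf2bp1, Meg3 and Sprr1a had no UMI in these cells. Cyp2e1, a drug-metabolising enzyme of mature hepatocytes, was at 283, 355 and 348 CPM in them and at most at 1.53 CPM in the chosen cells of NEJ634, NEJ709 and NEJ723. In the NEJ638, NEJ654 and NEJ677 cells with 3 to 10 selecting UMIs the albumin gene Alb was at 14671, 49307 and 45875 CPM. With over 10 selecting UMIs Alb was at 4485, 13388 and 6950 CPM. Free RNA was not estimated in these libraries, and its part in the Cyp2e1 level was not tested. Spp1-rich cells were 16 of 19, 11 of 23 and 19 of 31, and 0 of these met the Afp and Igf2 limit. Levels are side by side here, since libraries are single samples.

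Depth and free RNA limit how single cells can be read. Thinned to 500 base UMIs, 55 of the 110 chosen cells of NEJ634 kept a UMI of Afp, as did 19.2% of those of NEJ709 and 53.4% of those of NEJ723. Thinned to 1000 base UMIs the shares were 63.9%, 32.7% and 70.2%, and before thinning they were 76.4%, 76.9% and 96.6%. In T-cell barcodes, which do not make Afp, 15.6%, 11.8% and 5.48% kept one at 500 base UMIs, so the share in NEJ709 at 500 lay close to that background. At 500 base UMIs Krt8 was kept by 43.6%, 46.2% and 44.5% of the cells, against 3.70%, 0% and 2.26% of T-cell barcodes and 10.9%, 10.1% and 6.87% of all others. The share of UMIs from free RNA, estimated from T-cell and B-cell genes, was 16.2% in NEJ634, 15.3% in NEJ709 and 2.95% in NEJ723.

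Genes were also ordered by their place in the genome (GENCODE M21 coordinates), a step added after the data had been seen. In the comparison with Afp and Igf2 cells, the median difference of all genes was 0.07 in NEJ634, 0.09 in NEJ709 and 0.17 in NEJ723. In NEJ709 the 140 tested genes of chromosome 15 had a median of 0.77, 126 of them lay above 0 and 40 were at least 2-fold higher. On the other chromosomes of NEJ709 the median was 0.07 and 5.50% of genes were at least 2-fold higher. Chromosome 6 followed at 0.47, and the next, chromosome 13, was at 0.18. By windows of 10 Mb, the highest median of NEJ709 was on chromosome 13, between 20 and 30 Mb, at 0.94 with 7 of 16 genes at least 2-fold higher. In NEJ634 the genes between 160 and 180 Mb of chromosome 2 stood apart, since 45 of 46 lay above 0, 36 were at least 2-fold higher and the median was 1.63, beside 0.06 elsewhere. In NEJ723 no chromosome stood apart, with medians between 0.12 and 0.24. Averaged over cells the medians of NEJ709 were smaller, at 0.31 for chromosome 15 and 0.17 for chromosome 6, while those of NEJ723 were larger on each chromosome. In NEJ634 the median chosen cell held 0.823% of base UMIs in the region of chromosome 2, beside 1.98% of their sum.

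**Figure D4:**
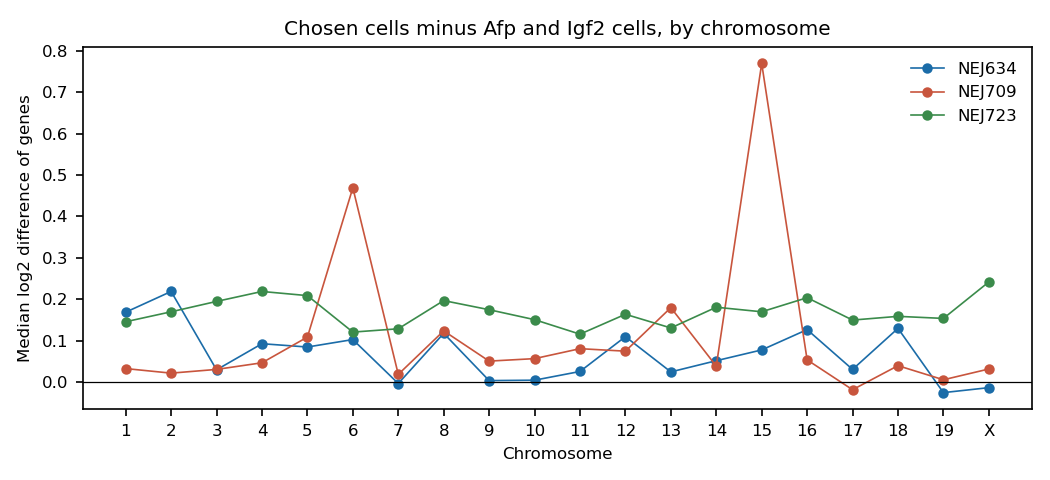
Median log2 difference of the tested genes of each chromosome between the chosen cells and the Afp and Igf2 cells of the same library, with lines joining the chromosomes of a library. Chromosome 15 (0.77) and chromosome 6 (0.47) stand above the rest in NEJ709, and the medians of NEJ723 stay between 0.12 and 0.24.

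Chromosome 15 of NEJ709 and distal chromosome 2 of NEJ634 were also read in single cells. For chromosome 6 of NEJ709, 0 of 39 chosen cells with over 5000 UMIs lay above the 99th percentile of the other barcodes, 7.22% of base UMIs. The 8 cells with over 20000 UMIs lay between 4.58% and 6.71%, with a median of 6.33%, beside a median of 3.76% in the other barcodes over 5000 UMIs and at most 4.38% in the Afp and Igf2 cells of that depth. The keratin genes Krt7, Krt8 and Krt18 lie on chromosome 15 and were left out here. In the 8 NEJ709 cells with over 20000 UMIs, the other genes of chromosome 15 made up between 4.10% and 7.23% of base UMIs. Among the other NEJ709 barcodes with over 5000 UMIs the median was 3.48%, the 99th percentile 4.37% and the highest value 5.75%. Of the 39 chosen cells of that depth 12 lay above that percentile and 6 above the highest value. The 20 Afp and Igf2 cells of that depth reached at most 4.09%. In NEJ723, 222 cells with over 20000 UMIs lay between 2.68% and 5.29%, with a median of 4.18% beside 3.42% in the other barcodes over 5000 UMIs.

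In NEJ634 the cells differed among themselves in the region of chromosome 2. The 3 deep cells with high Afp and Igf2, of 109036, 68469 and 36336 UMIs, held 5.38%, 1.96% and 3.10% of base UMIs there. The 3 Spp1-rich cells, of 42500, 19419 and 15659 UMIs, held 0.714%, 0.670% and 0.760%. The other barcodes over 5000 UMIs had a median of 0.664%, a 99th percentile of 1.45% and a highest value of 4.55%, the last in an Afp and Igf2 cell. Of 34 chosen cells over 5000 UMIs 11 lay above that percentile, and 26 of 2549 other barcodes did. A further chosen cell, of 11015 UMIs and with 0.464% Afp and Igf2, held 0.568%, while cells of 9823 and 9424 UMIs with 0.671% and 0.769% held 2.46% and 1.69%. The Afp and Igf2 cells outside the rule had a median of 0.633% at that depth. DNA copy number was not measured, and what sets these values was not tested.

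**Figure D5:**
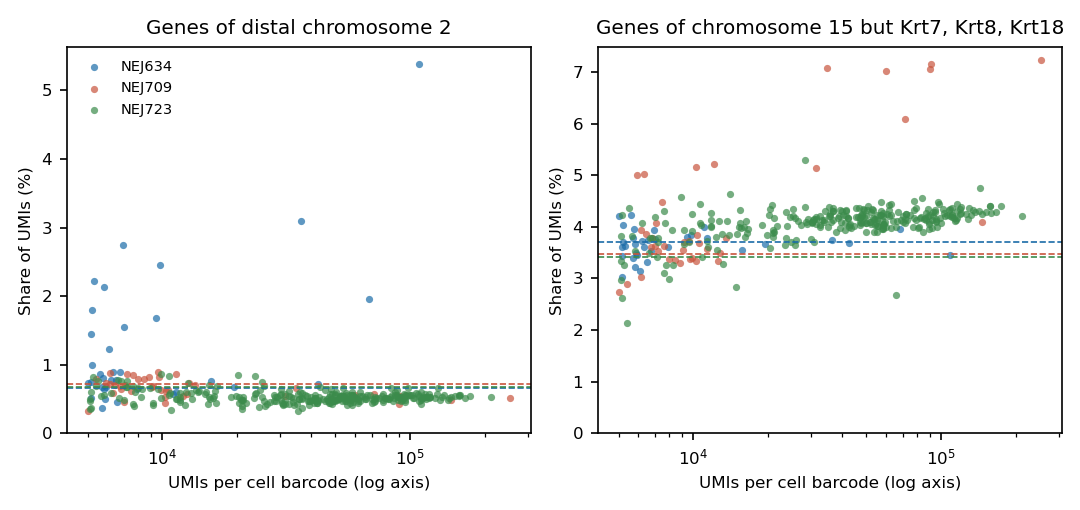
Each point is a chosen cell with over 5000 UMIs, with its UMIs on a log axis and the share of its base UMIs from distal chromosome 2 (left) or from chromosome 15 without Krt7, Krt8 and Krt18 (right). Dashed lines are medians of the other barcodes of each library, and NEJ634 cells rise to 5.38% on the left and NEJ709 cells to 7.23% on the right.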

How the data were processed

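The deposited values are UMI counts of each gene in each barcode, which the authors made with Cell Ranger, with no normalization and no cell filter. The file headers name Cell Ranger 4, while the labels and the study's methods name 6.0, the latter with introns counted, so the run that made them is not settled. Libraries were made with the 10x Genomics 3′ kit from cells freed by collagenase. The design text speaks of nuclei and the labels of cells. Totals ran from 40214395 to 132485391 UMIs per library, and 3′ counts do not allow levels of different genes to be compared.

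The selection, gene lists and comparisons were chosen with earlier results of these data known. The labels give 0 groups, so libraries were neither grouped nor treated as replicates, and no test was made. Levels were UMIs summed over cells per 1000000 base UMIs (CPM). Genes of at least 50 CPM (mean over libraries) in either pool were compared after adding 10 CPM, in libraries of at least 20 chosen cells. Named genes were the 6 proposed markers, genes the study names, the extreme genes of each list (4 highest, 2 lowest), the 25 highest and 15 lowest against all others, 15 each way against Afp and Igf2 cells, and 5 leading genes per cluster. Alb, Cdh1, Cgn, Crb3, Cyp3a11, Dsp, Fos, Lsr, Sox9 and Top2a fall outside that rule and were named after their values were seen. In the simulated data for the comparison with all other barcodes (2834 genes), 92.8% of 194 changed genes and 0 unchanged genes were counted. Every simulated cell of a pool had the same expected levels, and the planted changes were alike in all libraries. The real pools mix cells of several kinds, so these counts do not carry over to them.

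T-cell and B-cell barcodes held at least 3 UMIs and 0.05% of base UMIs of Cd3d, Cd3e and Cd3g, or of Cd79a and Cd79b. Clusters used 1000 variable genes, 20 components, 15 neighbours and Leiden resolution 0.5. Doublets were kept, and as an alternative the highest Scrublet scores were removed at 0.8% per 1000 barcodes, which took 24, 3, 10 and 16 chosen cells of NEJ634, NEJ687, NEJ709 and NEJ723. Other alternatives changed the selection, depth and mitochondrial limits, the total, weighting, thinning depth, free RNA, pseudocount, filter and fold limit. A gate over 10 UMIs, leaving out the largest cell or cells over 5% haemoglobin, the Spp1 limit and the order by chromosome were chosen after seeing the data. Promoters came from RefSeq (GRCm38.p6) and positions from GENCODE M21. Tools were scanpy 1.11.5, igraph 0.11.9, scikit-learn 1.9.0, scipy 1.17.1, anndata 0.12.19, matplotlib 3.10.9, pandas 2.3.3 and numpy 2.4.6, run under Python 3.11.15.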

Additional observations from a re-analysis of the deposited data

Results flagged for a closer look

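Barcodes that pass the same rule were found in the 3 libraries that the study does not call tumors, which the comparisons did not use. In NEJ638 they were 0.298% of the barcodes that met the depth and mitochondrial limits. NEJ654 had 0.405% and NEJ677 had 0.453%. The limit that a count of 0 allows, 3 barcodes of the total, was 0.0470%, 0.0529% and 0.0438%, for counting error only. All 3 shares exceed that limit, which a background of passing barcodes would also do. T-cell barcodes of these libraries passed in 0 of 279, 1 of 476 and 0 of 618, with upper bounds of 1.31%, 1.17% and 0.595% that do not lie below the shares. All 3 shares were above those of the tumors NEJ634 (0.271%), NEJ709 (0.242%) and NEJ687 (0.106%) and below that of NEJ723 (2.69%). NEJ654 and NEJ677 lay above the interval of NEJ634, 0.222 to 0.326%, and NEJ638 within it.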

How the results depend on the processing

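The 496 cells became 890 with at least 2 selecting UMIs, 265 with over 10 (chosen after seeing the data), 287 at a share of 0.1% and 295 without Cldn7. The 141 genes higher than all others became 49 by the mean over cells, 50 with a pseudocount of 50 CPM, 226 at 10 CPM or with no filter, 387 at 1.5-fold, 237 with over 10 selecting UMIs and 158 to 569 without each library in turn (569 without NEJ634). The 241 lower genes became 129 with at least 2 selecting UMIs, 145 with CPM over all UMIs, 14 by the mean over cells, 78 with a pseudocount of 50, 368 at 10 CPM or with no filter, 426 at 1.5-fold, 410 with over 10 selecting UMIs and 248 to 547 without each library (547 without NEJ634). The 16 genes higher than Afp and Igf2 cells became 6 at a share of 0.1%, 5 without Cldn3, 10 without Cldn6, 7 without Cldn7, 10 without barcodes of another library, 40 with CPM over all UMIs, 10 by the mean over cells, 30 and 3 with pseudocounts of 1 and 50, 31 at 10 CPM or with no filter, 89 at 1.5-fold and 18 to 75 without each library. The 41 lower genes became 79 with at least 5 selecting UMIs, 66 without cells of other content, 18 with CPM over all UMIs, 9 by the mean over cells, 75 after subtraction of free RNA, 63 and 8 with pseudocounts of 1 and 50, 121 at 1.5-fold, 103 with over 10 selecting UMIs and 49 to 94 without each library. Thinning to 1000 base UMIs moved 8 of 9 shares, and the mean over cells and subtraction of free RNA each moved 28 of 36 levels. The 7 clusters became 12 at resolution 1. Among 169 named genes, 4563 of 4901 values kept direction and side of the 2-fold limit, 198 no longer passed it, 129 newly passed it and 11 reversed. At a share of 0.1% Apoa4 was at -0.81 and Apoc2 at -0.25, and without Cldn7 Apoc2 was at -0.69. By the mean over cells Ttc3 was at -0.42 and Cp at -0.046. Against other barcodes of at most 5% haemoglobin Alas2 was at 2.98, Rhd at 1.26, Aqp1 at 0.001, Klf1 at 0.85, Cldn13 at 1.53 and Car2 at 0.10. That limit was put on the other barcodes alone and not on the chosen cells. For these changes the cause was not tested beyond what each setting itself removes. Each difference was already taken between pools of the same library. The labels give no replicate numbers, and no test was made because the cells were chosen by their own counts.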
